A study of Mus musculus with 28 samples.

Results

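Brain endothelial cells line the vessels of the amygdala, and 10 of their genes were followed in RNA sequenced from amygdala micropunches of mice that drank water or alcohol. The genes were listed by symbol: the transcription factor *Sox17*, which the study singled out as an upstream regulator, and the endothelial genes *Cldn5*, *Flt1*, *Pecam1*, *Slco1a4*, *Ly6c1*, *Itm2a*, *Esam*, *Tek* and *Kdr*. The study inferred *Sox17* from its targets among the genes that differed, and reported that its knockdown in the amygdala lowered alcohol intake. The level of *Sox17* RNA, followed here, is a different measure. All 10 were among the 49477 genes shared by the count tables of both batches, and all 10 were among the 16266 genes tested, those whose counts averaged 10 or more per mouse. The 28 mice were adult females of strain C57BL6/J, with no transgene or deletion named in the labels. The 10 Water mice had water only, the 9 Acute mice had a single access to 20% alcohol, and the 9 Chronic mice had repeated access to 20% alcohol. Of these mice, 11 were in the first batch (4 Water, 4 Acute, 3 Chronic) and 17 in the second batch (6 Water, 5 Acute, 6 Chronic).

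Endothelial cells of the brain form the blood-brain barrier, which depends on tight junctions between the cells, on transporters in their membranes and on few routes across them. Their growth and survival are set by vascular endothelial growth factors, which signal through the receptors encoded by *Flt1* and *Kdr*, and by angiopoietins, which signal through the receptor encoded by *Tek*. *Sox17* belongs with *Sox7* and *Sox18* to the SoxF transcription factors, which act in endothelial differentiation and in arterial identity, and it also has roles in oligodendrocyte precursors. Micropunches hold neurons, glia and vessels together, so fewer endothelial cells and less RNA per endothelial cell cannot be told apart in any value below.

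The counts of these genes rested on total counts of 20004380 to 22569562 per mouse. Levels between genes were compared as counts scaled to library size (CPM) and divided by the length of the gene's exons in kilobases. On this scale *Itm2a*, which encodes an integral membrane protein enriched in brain endothelium, was highest at 19.6 ± 1.78 CPM per kb (SD, n = 28), and *Cldn5*, which encodes the main claudin of the tight junctions, followed at 16.6 ± 2.86 CPM per kb. *Ly6c1*, which encodes a surface antigen of endothelial cells, had 11.9 ± 1.09 CPM per kb, and *Slco1a4*, which encodes an organic anion transporter, had 5.20 ± 0.48 CPM per kb. The receptors and adhesion genes followed below these.

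*Flt1*, a receptor that binds growth factor with high affinity, had 3.96 ± 0.35 CPM per kb, and *Esam*, which encodes an adhesion molecule of endothelial junctions, had 3.09 ± 0.36 CPM per kb. *Pecam1*, which encodes the adhesion molecule CD31, had 2.61 ± 0.22 CPM per kb, *Tek* had 2.35 ± 0.22 CPM per kb and *Kdr*, the main signalling receptor for the growth factors, had 1.76 ± 0.17 CPM per kb. *Sox17* was the lowest in all 28 mice, at 0.70 ± 0.14 CPM per kb. The order was not equally firm along its length. *Itm2a* exceeded *Cldn5* in 25 of 28 mice and *Pecam1* exceeded *Tek* in 24 of 28, and *Flt1* over *Esam*, and *Esam* over *Pecam1*, held in 27 of 28, while the other neighbours kept their order in 28 of 28. Across mice the ranges of neighbours overlapped, except between *Ly6c1* and *Slco1a4* and between *Kdr* and *Sox17*. *Ly6c1* and *Slco1a4* have close paralogs, so their counts depend on how reads shared between copies were assigned.

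**Figure D1:**
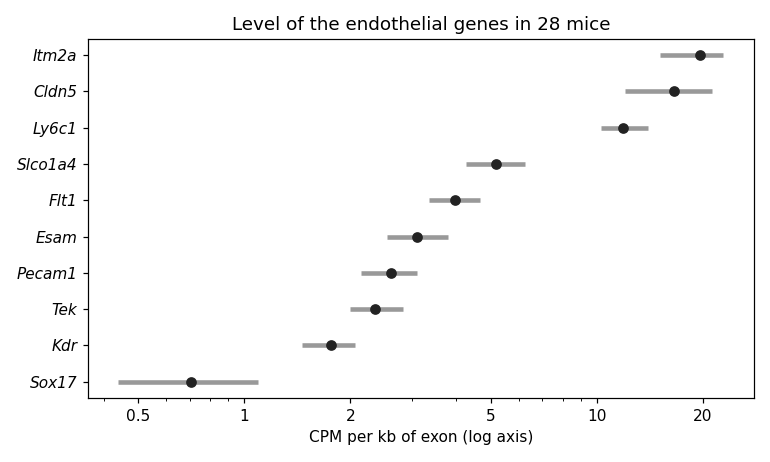
Level of each endothelial gene over the 28 mice, as CPM per kb of exon on a log axis. Points are means and grey bars run from the lowest to the highest mouse. *Sox17*, at a mean of 0.70 CPM per kb, lies apart from the rest, whose means run from 1.76 to 19.6 CPM per kb.

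The low level of *Sox17* set how finely it could be measured. It had 46 to 105 counts per mouse, with a mean of 69.1, for which counting error alone gives a coefficient of variation of 12.03%. The variation between mice beyond counting, estimated by edgeR, was 12.2% for *Sox17* and 7.02% to 9.66% for the other members. The SD of log2 CPM within group and batch was accordingly 0.24 for *Sox17* against 0.12 to 0.16 for the other 9 genes. *Sox17* (ENSMUSG00000025902) lies on chromosome 1 of GRCm38 from 4490931 to 4497354 on the minus strand, and *Gm37587* overlaps it within an exon on the plus strand. Whether counting used the strand is not given in the sources used here, and *Gm37587* had 0 to 4 counts per mouse. No other member overlapped an annotated gene.

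The batches differed in the level of some members. The mean normalized count of *Cldn5*, a count scaled to a common library size, was 541.7 ± 54.4 in the second batch and 400.6 ± 30.5 in the first, a ratio of 1.35. For *Sox17* the ratio was 1.24, for *Flt1* 1.09 and for *Slco1a4* 0.90, and for the other 6 genes it lay between 0.94 and 1.04. No member separated the batches without overlap. Group comparisons therefore carried batch as a covariate, and values within each batch are given where a comparison rests on them.

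The comparisons of Acute and Chronic mice with Water mice ask whether drinking changes the level of these genes. No member was called in either comparison, or between Chronic and Acute mice, at an edgeR adjusted p under 0.05. Over all genes tested, this threshold called 0% of genes between Acute and Water mice, 0.0184% between Chronic and Water mice and 0% between Chronic and Acute mice. At an unadjusted p under 0.05, 1 member passed between Acute and Water mice (*Ly6c1*), 2 between Chronic and Water mice (*Ly6c1* and *Cldn5*) and 2 between Chronic and Acute mice (*Sox17* and *Cldn5*). The shares of all genes that passed the unadjusted threshold were 9.52%, 10.5% and 4.44%, so the first 2 counts of members are near the background, and no more than 2 of 10 genes passed in any comparison. DESeq2, limma-voom and the combination of ComBat-seq with DESeq2 also called 0 of the 10. Both DESeq2 fits left genes of low mean count without an adjusted p, and such genes could not be called. Between Chronic and Water mice DESeq2 adjusted 10273 genes and called 36, and after ComBat-seq it adjusted 8397 and called 88. *Klf2*, described below, averages 137.25 counts and had no adjusted p in either, and *Sox17* averages 69.1. In those fits the 0 is therefore not a test of every member.

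The directions of the members were mixed. In Acute mice 6 of 10 had a log2 fold change above 0, with a median of 0.01, and in Chronic mice 5 of 10, with a median of -0.02. Over all genes tested, the share above 0 was 50.6% and 51%, with medians of 0.0011 and 0.0022. The widest 95% confidence interval of a member, that of *Sox17*, ran from a fold of 0.97 to 1.31 for Chronic against Water mice, and that of the other 9 members stayed between 0.86 and 1.18 in this comparison.

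*Sox17*, the transcription factor of the group, had normalized counts with a lowest value of 43.3, a median of 70.4 and a highest value of 82.4 in Water mice. In Acute mice the lowest, median and highest were 46.3, 62.2 and 81.5, and in Chronic mice 52.0, 80.0 and 107.6. The groups overlapped widely, although 3 of 9 Chronic mice lay above all Water mice once batch means were removed. The means were 67.8 ± 11.2 (SD, n = 10) in Water mice, 64.1 ± 12.2 (n = 9) in Acute and 76.9 ± 15.1 (n = 9) in Chronic mice.

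The log2 fold change of *Sox17* was -0.07 (standard error 0.11, edgeR adjusted p = 0.877) between Acute and Water mice and 0.17 (standard error 0.11, edgeR adjusted p = 0.598) between Chronic and Water mice. Between Chronic and Acute mice it was 0.24, with a 95% confidence interval of 0.01 to 0.46 and an edgeR adjusted p of 0.998. Enumerating every relabelling of the mice inside each batch gave exact 2-sided permutation p-values of 0.50 and 0.176 against Water, and 0.0718 between Chronic and Acute mice. Those tests covered 32340 regroupings for a comparison with Water, for which the smallest possible p is 3.09e-05. Within the first and second batch the Chronic log2 fold change was 0.24 and 0.13, and the Acute one was -0.09 and -0.05. None of these differences exceeded the spread between mice by both tests.

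Among the genes of the tight junctions and adhesion, *Cldn5* had normalized counts from 352.2 to 603.1 (median 461.0) in Water mice, from 374.5 to 568.6 (median 452.5) in Acute mice and from 385.1 to 623.0 (median 544.1) in Chronic mice. With batch means removed, 7 of 9 Chronic mice lay above the mean of the Water mice and 3 of 9 above all of them. The log2 fold change was 0.01 (standard error 0.056, edgeR adjusted p = 0.973) in Acute and 0.13 (standard error 0.055, edgeR adjusted p = 0.419) in Chronic mice, and within the batches the Chronic value was 0.10 and 0.14. *Cldn5* has the highest GC content of the members, 60.5% of exonic bases. For a gene of its GC content and length, the libraries' trend on these alone differed by 0.08 (log2) between Chronic and Water mice. Unlike the fold change, this 0.08 is a difference of plain group means, with batch not removed. With that trend removed, the Chronic value was 0.05 (edgeR adjusted p = 0.916). The part of GC content in the difference was not tested beyond this.

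*Esam* had 183.6 ± 23.6 normalized counts in Water mice, 191.5 ± 23.2 in Acute and 174.8 ± 16.2 in Chronic mice, with a Chronic log2 fold change of -0.06. With 1 mouse left out at a time this ranged from -0.09 to -0.03, the latter without Chronic mouse 39, and it was -0.10 with the trends on GC content and length removed. Its Chronic value was -0.22 within the first batch and 0.03 within the second. *Pecam1* had 333.0 ± 30.0, 343.6 ± 28.7 and 334.2 ± 30.3 normalized counts in the same order, and its Chronic log2 fold change of 0.01 (95% confidence interval -0.11 to 0.13) was the smallest of the members. Neither adhesion gene passed even the unadjusted threshold in any comparison.

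*Ly6c1* was the member with the lowest adjusted p in both comparisons with Water. Its normalized counts ran from 356.3 to 463.3 (median 377.1) in Water mice, from 363.7 to 487.2 (median 422.6) in Acute and from 377.1 to 453.5 (median 437.1) in Chronic mice. The highest Water mouse stood above all Acute mice but 3 once batch means were removed, and above every Chronic mouse. The log2 fold change was 0.12 (standard error 0.055, edgeR adjusted p = 0.504) in Acute and 0.13 (standard error 0.055, edgeR adjusted p = 0.397) in Chronic mice. Within the batches, the Acute value was 0.13 and 0.10 and the Chronic value 0.11 and 0.14, and 7 of 9 mice of each drinking group lay above the mean of the Water mice. Both comparisons share the same Water mice, and Chronic and Acute mice differed by 0.01 (95% confidence interval -0.10 to 0.13).

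The receptors for the growth factors did not differ between groups beyond the spread between mice. *Kdr* had 339.6 ± 33.3 normalized counts in Water mice, 326.4 ± 26.4 in Acute and 317.6 ± 34.4 in Chronic mice, and its log2 fold changes were -0.06 and -0.09 (edgeR adjusted p = 0.784 and 0.628). With the trends on GC content and length removed they were -0.03 and -0.06, and with 1 mouse left out at a time they ranged from -0.08 to -0.04 and from -0.13 to -0.06. *Flt1* had 1129 ± 113.3, 1082 ± 74.0 and 1104 ± 102.0 normalized counts, with log2 fold changes of -0.05 and -0.04 (edgeR adjusted p = 0.750 and 0.830). The *Flt1* differences were -0.005 and 0.001 after removal of the trends on GC content and length. For both receptors, only 2 of 9 Acute mice lay above the mean of the Water mice.

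*Tek*, the receptor for the angiopoietins, had 232.2 ± 24.2 normalized counts in Water mice, 234.6 ± 22.8 in Acute and 221.9 ± 16.6 in Chronic mice. Its Chronic log2 fold change differed in sign between the batches, 0.14 in the first and -0.18 in the second. The difference between them was -0.32 (edgeR interaction term, unadjusted p = 0.0122, adjusted p = 0.774), the smallest such p among the members, beside 6.15% of all genes at an unadjusted p under 0.05. No member was called in the test of the difference between batches, which called 0%, 0.00615% and 0% of all genes in the 3 comparisons.

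Of the remaining members, *Slco1a4*, the transporter, had 704.7 ± 67.8 normalized counts in Water mice, 695.2 ± 66.6 in Acute and 668.0 ± 58.0 in Chronic mice. With batch means removed, 4 of 9 Chronic mice lay below every Water mouse, although the log2 fold change of the group was -0.07 (edgeR adjusted p = 0.675), and -0.01 with the trends on GC content and length removed. *Itm2a* had 690.1 ± 73.0, 728.9 ± 57.5 and 707.0 ± 61.4 normalized counts, with log2 fold changes of 0.08 and 0.03, which with 1 mouse left out at a time ranged from 0.04 to 0.10 and from 0.0016 to 0.06, the lowest in both being without Water mouse 43. For *Itm2a*, 8 of 9 Acute mice were above the mean of the Water mice, and the edgeR adjusted p was 0.683.

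**Figure D2:**
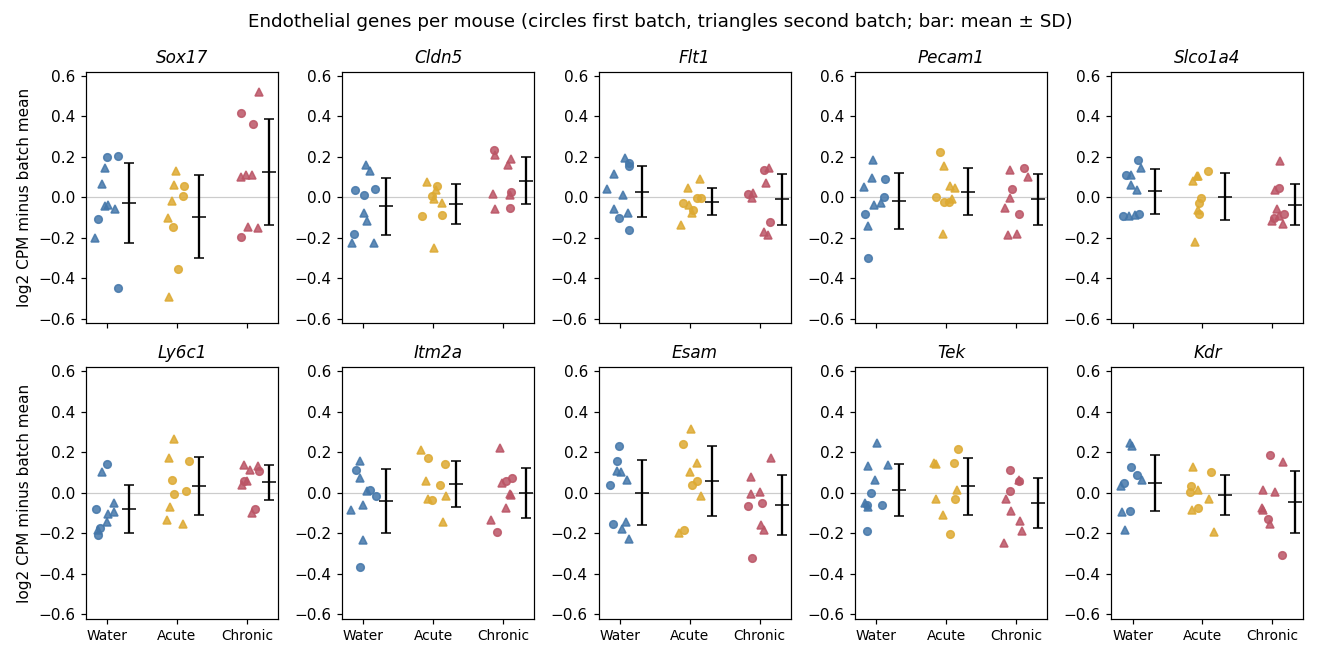
Level of each endothelial gene in every mouse, as log2 CPM minus the mean of its batch, for 10 Water, 9 Acute and 9 Chronic mice. Circles are the first batch, triangles the second, and black bars are the mean ± SD of a group. The groups overlap for every gene, and *Sox17* has the widest spread between mice.

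**Figure D3:**
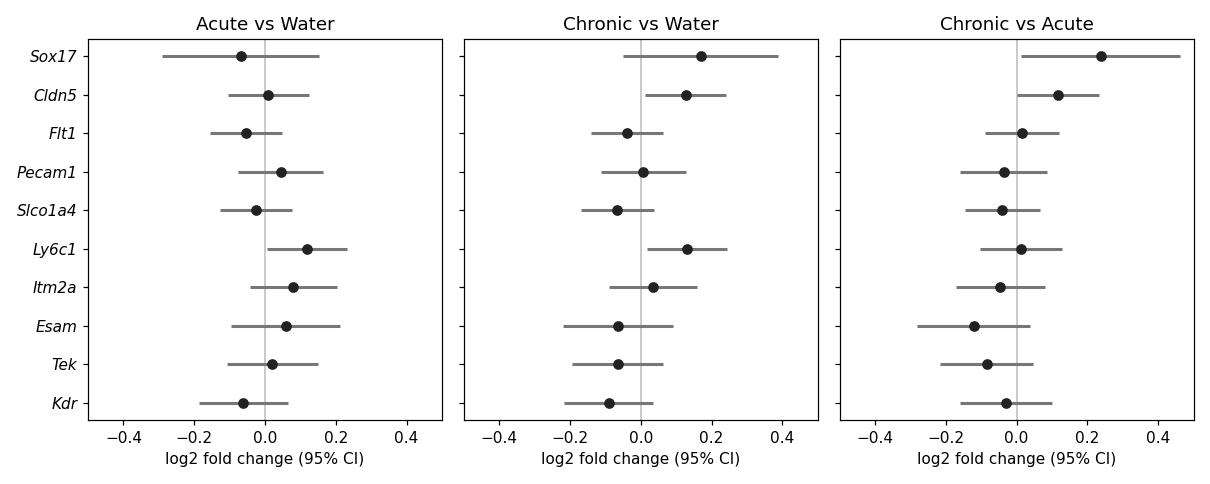
Log2 fold change of each endothelial gene in the 3 comparisons, with 95% confidence intervals from edgeR. The intervals that leave out 0 belong to *Ly6c1* (0.12) between Acute and Water mice, to *Cldn5* and *Ly6c1* (both 0.13) between Chronic and Water mice, and to *Sox17* (0.24) and *Cldn5* (0.12) between Chronic and Acute mice. None of these passed the adjusted threshold.

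A wider set of 177 vascular genes, on lists chosen by pathway, function or cell type, gave 1 call in edgeR. It pools the endothelial lists described below with those of pericytes and vascular smooth muscle. Of the 167 tested, 0 passed the adjusted threshold between Acute and Water mice, with 73 higher and 94 lower, and 1 was called between Chronic and Water mice, with 84 higher and 83 lower. The called gene was *Klf2*, a transcription factor that endothelial cells induce under laminar blood flow and that responds early to stimuli in other cells. It had normalized counts from 87.2 to 125.8 (median 115.4) in Water mice, from 123.3 to 159.0 (median 138.7) in Acute and from 140.9 to 193.1 (median 161.0) in Chronic mice. All 9 Chronic mice lay above every Water mouse, and 7 of 9 Acute mice did. The log2 fold change was 0.54 in Chronic mice (edgeR adjusted p = 6.51e-05) and 0.33 in Acute mice (edgeR adjusted p = 0.136). The study also picked *Klf2* from these mice, in its list for the Acute comparison, and a choice made on the same mice is not independent evidence. *Klf2* was called in Acute mice by DESeq2 with batch (adjusted p = 0.0495) and by ComBat-seq followed by DESeq2 (adjusted p = 0.0168). In Chronic mice it received no adjusted p in either and so could not be called. Its unadjusted p there was 1.76e-13 in DESeq2 with batch and 3.27e-14 in ComBat-seq followed by DESeq2. Which cell type carries the difference was not tested. Of the vascular genes not tested, *Acta2* and *Notch3* were listed by the second batch's table alone, where their Chronic log2 fold changes were -0.14 and -0.03, without a call.

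No other endothelial transcription factor was called. *Sox7* and *Sox18* were tested with the 17 genes of this list, whose median log2 fold change was -0.01 in Acute and 0.03 in Chronic mice. The growth factor pathway had 8 genes tested and none called, and its smallest p-values were those of *Pgf* in Acute mice (log2 fold change 0.35, edgeR adjusted p = 0.407) and of *Vegfb* in Chronic mice (0.13, adjusted p = 0.249), which both encode ligands of the *Flt1* receptor. Of the 5 genes tested around *Tek*, *Ptprb*, which encodes a phosphatase that restrains the receptor, had the smallest p in both drinking groups, with log2 fold changes of -0.14 and -0.13 (edgeR adjusted p = 0.493 and 0.474).

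In the Wnt pathway that maintains the barrier, 17 genes were tested and *Lrp6*, a coreceptor, had the smallest p in both groups, with log2 fold changes of -0.15 and -0.16 (edgeR adjusted p = 0.407 and 0.241). In the Notch pathway, which arterial endothelium uses, *Rbpj* had a Chronic log2 fold change of -0.12 (adjusted p = 0.241) and *Notch2* an Acute one of -0.18 (adjusted p = 0.564), among 13 genes tested. *Tjp1*, a scaffold of the tight junctions, had -0.13 in Acute and -0.08 in Chronic mice (edgeR adjusted p = 0.348 and 0.474) among 16 junction genes. In edgeR 0 genes of these 3 lists were called. At an unadjusted p under 0.05 stood 0 Notch, 1 Wnt and 2 junction genes in Acute mice, beside 9.52% of all genes, and in Chronic mice 1 Notch, 1 Wnt and 1 junction gene lower and 3 Wnt genes higher, beside 10.5% of all genes. *Lrp6* was called in Chronic mice by ComBat-seq followed by DESeq2, with a log2 fold change of -0.19 (adjusted p = 0.0467). The medians of the Wnt, Notch and junction lists lay between -0.04 and 0.00.

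The transporters of the barrier (20 tested), arterial genes (8) and genes of endothelial activation (6) had no gene called. The other endothelial markers (40 tested) had none called either, with a median log2 fold change of 0.0006 in Acute and 0.03 in Chronic mice. *Clec14a*, a further endothelial surface gene, had the smallest p of these in Chronic mice, at 0.29 (edgeR adjusted p = 0.391), and *Efnb2*, an arterial gene, had -0.09 in each drinking group (edgeR adjusted p = 0.502 and 0.467). Markers of the cells that lie next to endothelium were also without a call: pericytes (11 tested, medians of 0.04 and -0.003), vascular smooth muscle (6 tested, 0.07 and 0.08), fibroblasts and meninges (8 tested, -0.04 and 0.06), blood cells (7 tested, 0.04 and 0.04) and choroid plexus (8 tested, -0.06 and -0.13). The pericyte channel gene *Abcc9* had a Chronic log2 fold change of -0.22 (edgeR adjusted p = 0.279).

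Levels across mice were compared to see which genes varied together with *Sox17*. The correlations are of log2 CPM with batch means removed, over 28 mice that share their libraries' depth and composition. Group means were left in, so a shift between drinking groups also enters r. Of the 261 relations tested with genes of the lists, none passed Benjamini-Hochberg adjustment of permutation p-values at 0.05, beside 0 of 9 for the other endothelial members.

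Among the members, *Sox17* varied most like *Cldn5* (Pearson r = 0.45, permutation p = 0.0129, adjusted p = 0.393, Spearman rho = 0.43, permutation p = 0.0223) and *Flt1* (r = 0.44, permutation p = 0.0214, adjusted p = 0.400, rho = 0.43, permutation p = 0.0248). Of all tested genes, 98.1% had a lower r with *Sox17* than *Cldn5* had, and 98.0% a lower r than *Flt1* had. The batches taken singly gave 0.58 and 0.40 for *Cldn5*, and for *Flt1* it was 0.73 and 0.20. Without the 2 mice farthest from the median of the other gene, r was 0.36 for *Cldn5* and 0.56 for *Flt1*. With the mean of each group within each batch removed, r was 0.36 for *Cldn5* and 0.49 for *Flt1*. At the other end, *Slco1a4* had r = -0.32 (permutation p = 0.10, adjusted p = 0.540, rho = -0.38), with -0.17 and -0.44 in the batches. The remaining 6 members had r between -0.06 and 0.12.

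**Figure D4:**
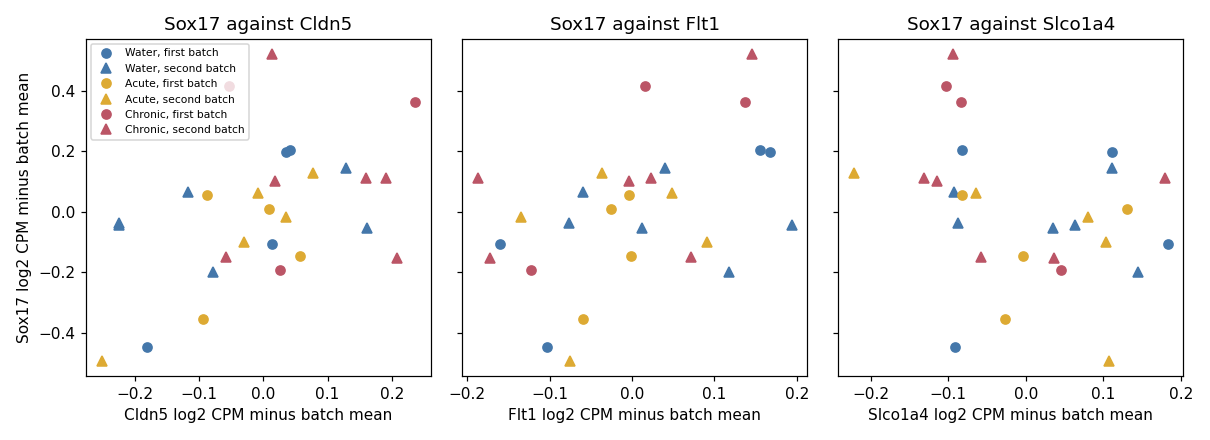
*Sox17* against *Cldn5*, *Flt1* and *Slco1a4* in 28 mice, each as log2 CPM minus the mean of its batch. Colours are the groups, circles the first batch and triangles the second. Pearson r is 0.45, 0.44 and -0.32 from left to right, and the *Flt1* relation is tighter among circles (0.73) than among triangles (0.20).

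The sequences before the start sites of *Cldn5* and *Flt1* are shown because these genes varied most like *Sox17*, that of *Slco1a4* because it varied least like it, and that of *Tek* because it holds the core letters bound by SOX proteins. Each is the 250 bases before the RefSeq start site of GRCm38.p6 on the strand of the gene, 5′ to 3′, and capitals mark ACAAT or its reverse complement ATTGT. *Cldn5* is chr16:18776597-18776846 on the plus strand, *Flt1* chr5:147726012-147726261 on the minus strand, *Slco1a4* chr6:141856221-141856470 on the minus strand and *Tek* chr4:94739039-94739288 on the plus strand.
Cldn5: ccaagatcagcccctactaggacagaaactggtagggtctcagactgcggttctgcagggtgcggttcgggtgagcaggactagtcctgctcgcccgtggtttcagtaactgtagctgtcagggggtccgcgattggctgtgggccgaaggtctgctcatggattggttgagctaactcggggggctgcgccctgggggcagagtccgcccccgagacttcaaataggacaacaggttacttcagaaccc
Flt1: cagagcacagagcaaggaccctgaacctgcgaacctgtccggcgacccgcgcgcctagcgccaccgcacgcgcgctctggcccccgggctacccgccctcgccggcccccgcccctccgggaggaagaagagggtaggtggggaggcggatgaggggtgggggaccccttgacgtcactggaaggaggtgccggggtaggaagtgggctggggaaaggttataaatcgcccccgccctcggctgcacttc
Slco1a4: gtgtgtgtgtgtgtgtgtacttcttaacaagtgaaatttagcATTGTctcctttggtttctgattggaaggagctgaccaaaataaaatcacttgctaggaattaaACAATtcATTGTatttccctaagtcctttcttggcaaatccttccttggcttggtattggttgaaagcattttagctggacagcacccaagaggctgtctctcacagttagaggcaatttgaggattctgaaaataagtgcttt
Tek: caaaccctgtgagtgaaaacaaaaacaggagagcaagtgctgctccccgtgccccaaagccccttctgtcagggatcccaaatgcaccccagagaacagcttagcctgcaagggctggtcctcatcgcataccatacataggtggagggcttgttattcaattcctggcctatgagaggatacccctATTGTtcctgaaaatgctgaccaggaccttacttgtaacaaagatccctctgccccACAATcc

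Windows were read for 7 of the 10 members, and *Sox17*, *Pecam1* and *Esam* had no entry. These genes gave 8 windows, since *Ly6c1* has a second start site, and its 2 windows overlap in part. For *Slco1a4*, unlike the others, the bases after the RefSeq start were not found in a GENCODE M21 transcript of the gene. The SOX core was found on either strand in 2 of the 8 windows, *Slco1a4* with 3 matches and *Tek* with 2, beside 27.7% of all 32851 windows of this length. Neither *Cldn5* nor *Flt1*, whose levels varied most like that of *Sox17*, held these letters in the window. The ETS core GGAAG or CTTCC, whose factors are abundant in endothelium, stood in 6 of the 8 windows, beside 64.1% of all windows. The KLF core CACCC or GGGTG stood in 7 of the 8 windows, beside 52.0% of all windows. These are matches of short letter strings, none of which contains another, and not sites of binding.

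Genes of other cell types were set beside the endothelial ones, since *Sox17* is also known from the oligodendrocyte lineage. The median r of *Sox17* with the 9 other endothelial members was 0.01, with the 10 oligodendrocyte precursor genes 0.27 and with the 14 oligodendrocyte genes 0.28, beside -0.01 over all other genes tested. All 3 medians changed with the batch. In the first batch they were 0.39, 0.36 and 0.53, and in the second -0.12, -0.06 and -0.06. Without the 2 farthest mice they were -0.07, 0.14 and 0.22. For vascular smooth muscle the median r was 0.18 and for pericytes 0.09, and for neurons it was -0.16, for astrocytes -0.06 and for microglia -0.06. *Sox10*, a factor of the oligodendrocyte lineage, had r = 0.53 (permutation p = 0.00731, adjusted p = 0.357, rho = 0.47), with 0.59 and 0.45 in the batches. Over other endothelial lists the median r was 0.19 for 16 junction genes, 0.17 for 17 transcription factors, 0.12 for 40 other endothelial markers, -0.12 for 6 genes of endothelial activation and -0.15 for 20 transporters. It was 0.05 for 8 genes of arterial endothelium, 0.12 for 5 of the angiopoietin pathway, 0.04 for 17 of the Wnt, -0.02 for 13 of the Notch and -0.08 for 8 of the VEGF pathway. The differences between these lists were not tested.

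Single endothelial genes stood at both ends of the ranking. The largest r on the lists was that of *Sox7*, another SoxF factor, at 0.59 (permutation p = 0.00152, adjusted p = 0.198, rho = 0.59), with 0.62 and 0.57 in the batches and 0.65 without the 2 farthest mice. *Cd93*, an endothelial surface receptor, had 0.56 (permutation p = 0.00355, adjusted p = 0.232), but this rested in part on the 2 farthest mice, without which it was 0.26. *Sox7* had a mean of only 30.8 counts, so its values carry more counting error than those of the members. *Mecom*, an endothelial transcription factor, lay at the other end, with r = -0.52 (permutation p = 0.0033, adjusted p = 0.232).

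Over the 11723 genes that averaged 100 counts or more, the pattern most like that of *Sox17* was that of *Efcc1* (r = 0.70, rho = 0.64, with 0.81 and 0.56 in the batches), followed by *Tns2* (0.67), *Bahcc1* (0.65), *Susd2* (0.64), *Rgs16* (0.62), *Sbds* (0.61), *Plekhn1* (0.60), *Crhr1* (0.58), *Gm37724* (0.58) and *Gm46430* (0.58). These are the highest of many values and were ranked, not tested. No member is among the 10.

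Over the 45 pairs of members the median r was 0.12, and 31 pairs were above 0. Without *Sox17* the median of the 36 pairs was 0.14, with 25 above 0. The median r of a member with all tested genes lay between -0.03 and 0.01. The highest were *Pecam1* with *Itm2a* (0.54), *Cldn5* with *Itm2a* (0.50), *Sox17* with *Cldn5* (0.45), *Sox17* with *Flt1* (0.44) and *Pecam1* with *Esam* (0.44). The lowest were *Cldn5* with *Kdr* (-0.48) and *Sox17* with *Slco1a4* (-0.32). In the first batch the median was 0.28 with 34 pairs above 0, and in the second it was -0.03 with 22 above 0. *Cldn5* with *Itm2a* kept nearly the same value in both, 0.53 and 0.51, while *Pecam1* with *Itm2a* had 0.84 and 0.27. After each mouse's trend on GC content and length was removed, *Cldn5* with *Kdr* had -0.26, *Pecam1* with *Itm2a* 0.60 and the median was 0.12.

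**Figure D5:**
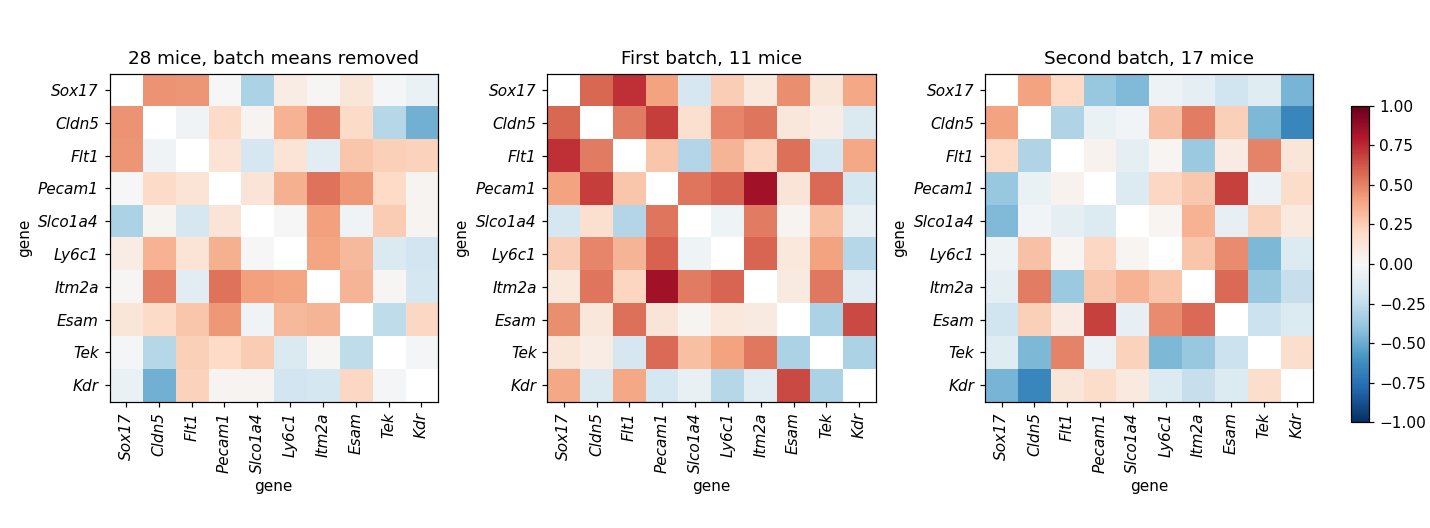
Pearson correlation of log2 CPM between each pair of the 10 endothelial genes, over all 28 mice with batch means removed, over the 11 mice of the first batch and over the 17 of the second. Red is positive, blue negative and the diagonal is blank. Of 45 pairs, 31, 34 and 22 are positive in the 3 panels.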

How the data were processed

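Amygdala micropunch RNA of 28 mice was sequenced in 2 batches. Per the labels and methods, the authors checked reads with FastQC 0.11.8, quantified them on GRCm38 with Salmon 0.14.1 and deposited estimated counts per gene, rounded to whole numbers and not normalized, in a table per batch. The tables were joined by gene identifier, and gene symbols, lengths and positions were taken from GENCODE M21. Groups and batches came from the sample titles. Of 55 pairs of mice of the same group and batch, none agreed within sampling noise. Per the methods, mice were housed singly during the experiment. Whether they shared litters is not given in the sources used here, and p-values measure the spread between mice. Genes of 1 table alone (574 and 1596) were left out.

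Genes averaging 10 or more counts were tested with edgeR 4.0.16 (quasi-likelihood F test, TMM factors, group and batch, all 28 mice), with Benjamini-Hochberg adjustment over 16266 genes and a threshold of 0.05. Normalized counts are counts divided by TMM-scaled library size and multiplied by the mean of that size. Log2 CPM used a prior count of 2. Correlations over mice used batch means removed, with 100000 permutations within batches. The exact test enumerated all regroupings within batches. The fits and the correlation were tested on simulated data. Analyses ran in R 4.3.3 (limma 3.58.1, DESeq2 1.42.0, sva 3.50.0) and Python 3.11.

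The members and lists were chosen with earlier results of these data known. Named genes are the members, any called gene and the gene of smallest p per list in each comparison with Water, the extremes of r per list, and the 10 genes most like Sox17. From these, some lists are given by counts and medians alone. Alternatives were other normalizations, filters and tests, each batch alone, a replicate block, offsets for GC content and length, fits without the third group, and each mouse left out. Behavior and qPCR were not analysed here.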

Additional observations from a re-analysis of the deposited data

How the results depend on the processing

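No alternative called any of the 10 endothelial genes in any comparison, and the lowest adjusted p was 0.232, for *Ly6c1* in Chronic mice under ComBat-seq followed by DESeq2. Not every alternative could call every member. *Sox17*, at a mean of 69.1 counts, was not in the fit of genes averaging 100 counts or more. Both DESeq2 fits left genes of low mean count without an adjusted p in comparisons with Water. Fold changes without an adjusted p are not among those counted next. Of 380 log2 fold changes of members under the alternatives other than leaving out single mice, 362 kept their direction and 18 reversed, and of 840 from fits that each left out 1 mouse, 20 reversed. All that reversed had been at most 0.085 in size.

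Between Acute and Water mice the reversed values were -0.0095 for *Cldn5*, and -0.030 for *Esam*, in the first batch alone, and -0.0056 for *Pecam1* and -0.045 for *Tek* in the second. With GC and length offsets they were -0.028 for *Cldn5* and 0.0095 for *Slco1a4*, and with these offsets and the replicate block -0.026 and 0.0082. Between Chronic and Water mice, *Flt1* had 0.00099 with the offsets and 0.0013 with the block as well, *Pecam1* had -0.0077 in limma-voom, -0.0032 in ComBat-seq with DESeq2 and -0.051 in the second batch alone, *Esam* had 0.028 in the second batch and *Tek* 0.14 in the first. Between Chronic and Acute mice, *Ly6c1* had -0.026 and *Tek* 0.020 in the first batch, and *Kdr* had 0.0076 in the second. The cause was not tested. Leaving out 1 mouse gave ranges of -0.012 to 0.036 for *Cldn5* and -0.0052 to 0.048 for *Tek* in Acute mice, of -0.022 to 0.032 for *Pecam1* in Chronic mice, and between Chronic and Acute mice of -0.0042 to 0.036 for *Flt1*, -0.010 to 0.049 for *Ly6c1* and -0.066 to 0.0072 for *Kdr*. In Chronic mice the range was -0.060 to -0.018 for *Flt1* and -0.089 to -0.036 for *Tek*. For *Sox17* those ranges were -0.12 to -0.022 in Acute and 0.11 to 0.21 in Chronic mice.

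Wider vascular genes called numbered 1 between Acute and Water mice in DESeq2 with batch and 1 in ComBat-seq with DESeq2, in both *Klf2*. Between Chronic and Water mice they numbered 0 in the first batch alone, where *Klf2* had a log2 fold change of 0.51, 0 in DESeq2 and 1, *Lrp6*, in ComBat-seq with DESeq2. *Klf2* (log2 fold change 0.54 in both) received no adjusted p in either DESeq2 fit, so it could not be counted there. Over all genes, DESeq2 with batch called 8 and 36 genes in the 2 comparisons with Water, and ComBat-seq with DESeq2 called 30 and 88, against 0 and 3 in edgeR. The median r of *Sox17* was 0.39 with the members in the first batch alone, -0.062 with oligodendrocyte precursor genes in the second, and 0.53 and -0.056 with oligodendrocyte genes in the first and second. Removing GC and length trends, chosen after seeing the data, gave 0.058, 0.23 and 0.28.

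The replicate numbers of the second batch did not pair mice: deviations of the 16 same-numbered pairs had r from -0.35 to 0.34, and 1 of 17 mice correlated best with its own number. With the replicate block, 0 members and 1 wider vascular gene in Chronic mice were called, as without it. At a mean of 69.1 counts, *Sox17* carries a counting error of 12.03%, beside a variation beyond counting of 12.2%.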
